A study of Rattus norvegicus with 23 samples.

Results

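Fatty acids are taken up by cells, joined to coenzyme A, carried into mitochondria as carnitine esters and shortened there by the enzymes of beta-oxidation. The 31 genes described here encode proteins of these steps and their main transcriptional regulators, and they were chosen by gene name. A row under its own name was present for 30 of the 31 among the 30562 genes of the count table, and all 30 passed the filter on low counts that left 15271 genes for testing. Cd36, a fatty acid translocase of the plasma membrane, had no row under that name. A row named RGD1565355, which the table describes as similar to CD36, was looked at after its values were seen and is given separately.

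As background, Fabp3 is the small protein that carries fatty acids through the cytosol of heart and skeletal muscle, and long-chain acyl-CoA synthetases such as Acsl1 trap fatty acids as acyl-CoA. Carnitine palmitoyltransferase 1, encoded in most tissues by Cpt1a and in muscle by Cpt1b, moves the acyl group onto carnitine, Slc25a20 carries the ester across the inner membrane, and Cpt2 returns it to coenzyme A. Chain-length-specific dehydrogenases, a hydratase, a hydroxyacyl dehydrogenase and a thiolase then remove acetyl-CoA units in turn, while electrons leave through Etfa, Etfb and Etfdh. Osteoblasts oxidise fatty acids for energy, and so, at a far higher rate, does oxidative skeletal muscle, which lies directly on the femur.

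Polyadenylated RNA was measured in femora of female Wistar rats, with 23 libraries in 5 groups. Control rats without disease (n = 4) had a standard diet and saline. The other 4 groups were all MetOP rats, a model in which L-NAME, which blocks nitric oxide synthase, was combined with a diet rich in fat. They were given saline (n = 5), semaglutide, an agonist of the GLP-1 receptor (n = 5), the gut peptide PYY3-36 (n = 4, called PYY here) or semaglutide together with PYY (the combination, n = 5). Treatment labels of the PYY libraries end in 36, 37, 38 and 39, so that all of them received PYY3-36 rests on their shared title. The titles of MetOP libraries also carry the letters lfd, which the labels do not explain, and ages, doses and durations were not known for this work. The labels do not say whether each library came from its own animal, and the spread behind the p-values may therefore be technical. Libraries are named by group and by the A number of their column.

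Library totals ran from 19.25 to 40.65 M counts, with a median of 25.9 M, and mitochondrially encoded transcripts took 46.1 to 83.9% of them. A count of 0 allows up to 3 counts, which is 0.0738 to 0.156 CPM (counts per M) of a library total, and this limit covers counting error only. Bone was present in every library, with all 11 osteoblast markers tested and a summed level of 279 to 9572 CPM. Skeletal muscle RNA was also present in every library: all 28 matched muscle markers were counted in each, and they made up 1.38 to 25.5% of the counts that were not mitochondrially encoded. PYY A216 and combination A320 had the least, at 2.36 and 1.38%. PYY A220 and semaglutide A242 stood apart in the kind of muscle. Their Myh7, the slow-fibre myosin, was at 4187 and 3596 CPM, while their Myh4, the myosin of the fastest fibres, was at 98.2 and 53.8 CPM, where the others ran from 193 to 12826 CPM. In bulk RNA, fewer cells of a type and less RNA per cell cannot be told apart, and this holds for each result below.

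The level of the genes, compared between genes as FPKM (counts per kilobase and M, deposited by the authors), differed widely. Fabp3 had the highest median over the 23 libraries, at 125 FPKM, with a range from 3.79 to 532. Acadl, Acadm and Hadhb, which oxidise long and medium chains, followed with medians of 77.3, 74.4 and 62.2 FPKM. Echs1 (35.8) and Hadha (34.0) came next, and their ranges over libraries overlapped widely with those of the genes just above and below them. The lowest were Cpt1a at 1.30, the coactivator Ppargc1a at 0.730, the peroxisomal enzyme Ehhadh at 0.543 and the nuclear receptor Ppara at 0.127 FPKM. Ppara, Ppargc1a and Ehhadh were the only 3 of the 30 genes with a count of 0 in at least 1 library.

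**Figure D1:**
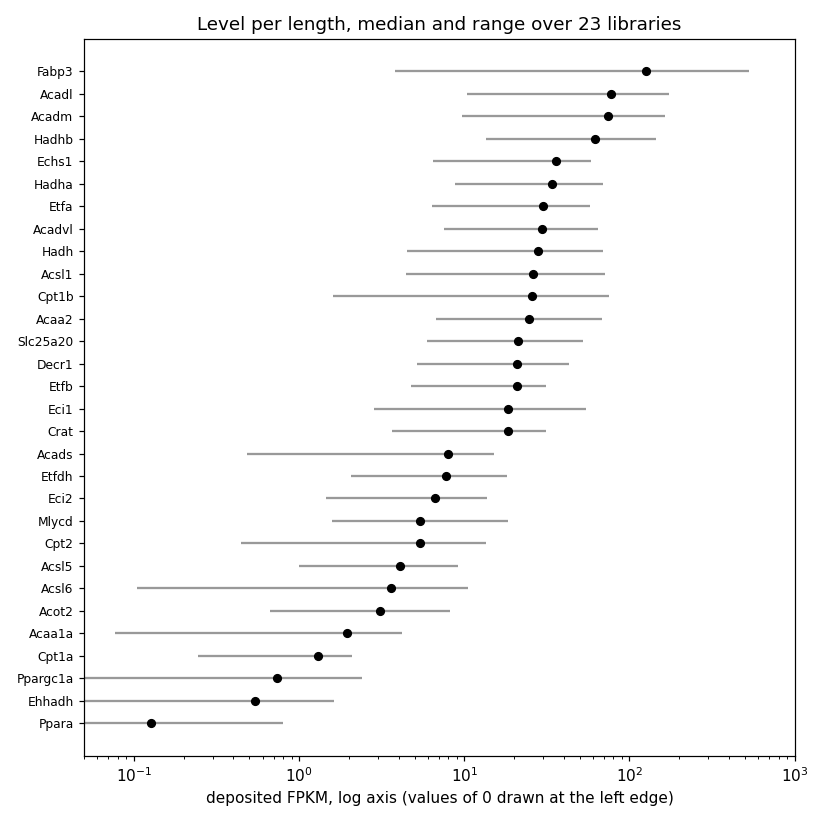
Level of each of the 30 genes per transcript length. Points are medians and bars the full range of the deposited FPKM over 23 libraries, on a log axis with values of 0 drawn at the left edge. Fabp3 is highest at a median of 125 FPKM, and Ppara lowest at 0.127.

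Most of the genes varied together from library to library. Over the 435 pairs of genes, the median Pearson correlation of log2 CPM across the 23 libraries was 0.829, and 57 pairs had a correlation below 0. The mean log2 CPM of the 30 genes was lowest in PYY A216 (2.45) and combination A320 (2.68) and highest in PYY A220 (5.60). Its mean was 5.11 ± 0.39 (SD, n = 5) for semaglutide and 4.18 ± 0.51 (n = 5) for saline. It was 4.49 ± 0.65 (n = 4) for the healthy animals, 3.96 ± 1.30 (n = 4) for PYY and 4.26 ± 1.03 (n = 5) for the combination. The PYY group thus held both the lowest and the highest library. The 30 genes together took 0.146 to 1.11% of the counts that were not mitochondrially encoded.

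**Figure D2:**
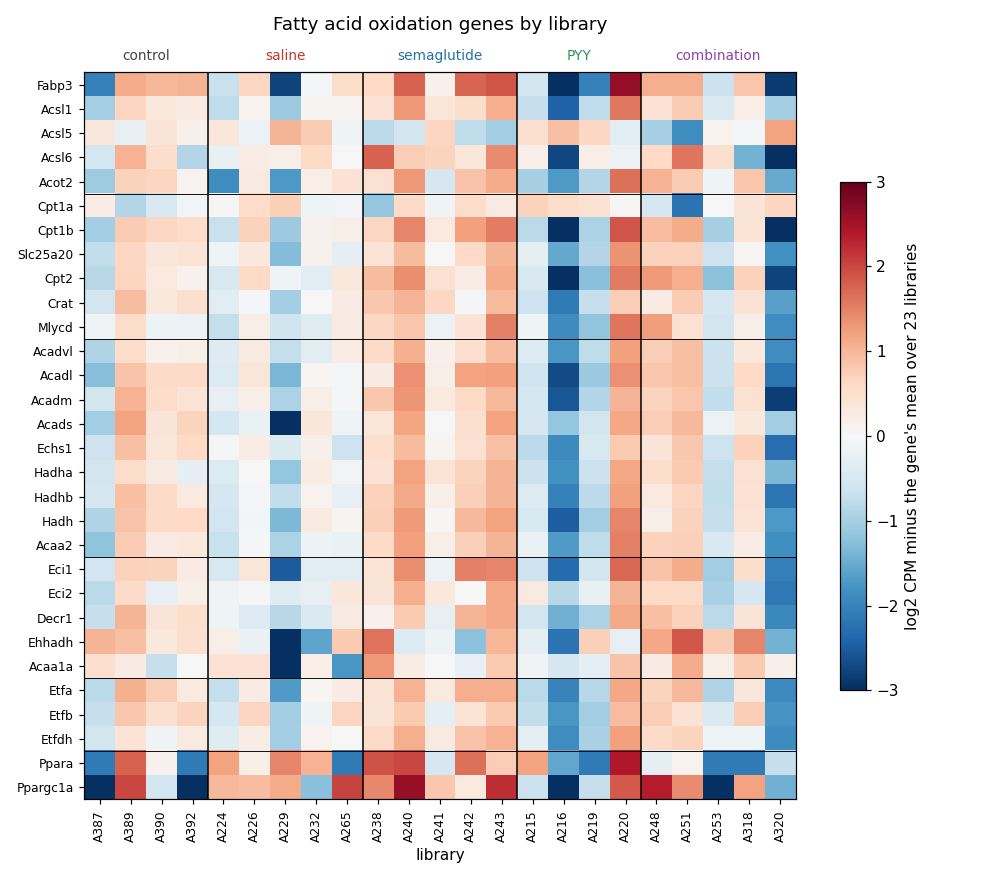
Log2 CPM of each gene minus its mean over the 23 libraries, ordered by role from binding and activation at the top to regulators at the bottom. Colours end at -3 and 3, and lower or higher values take the end colour. Columns are libraries by group: PYY A216 and combination A320 are blue in nearly all rows, PYY A220 and 3 semaglutide libraries (A240, A242, A243) are red in most, and Acsl5 and Cpt1a go against the rest.

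Semaglutide against MetOP saline gave the largest shift of the 4 comparisons with saline or control. With semaglutide, 28 of the 30 genes were higher and 2 were lower, beside 47.6 and 52.4% of all tested genes, and the median log2 fold change of the 30 was 0.93, against -0.04 over all tested genes. None of the 30 passed at an adjusted p under 0.05 in edgeR's quasi-likelihood test, where 0% of the 15271 genes passed, and the smallest adjusted p among them was 0.400. DESeq2 and limma voom also called none of the 30. At an unadjusted p under 0.05, 6 of the 30 were higher and 0 lower, beside 4.18 and 7.24% of all genes. The 5 semaglutide and 5 saline libraries did not overlap in 7 of the 30 (Acadm, Hadha, Hadhb, Acaa2, Etfa, Etfdh and Acsl1), all higher with semaglutide, beside 2.71% of all genes higher and 1.75% lower. Muscle markers moved in the same direction, with 28 of 28 higher, a median log2 fold change of 0.91 and a summed level of 42674 to 94360 CPM with semaglutide against 25722 to 56346 CPM in saline. Mitochondrially encoded transcripts took 54.4 to 67.4% of counts with semaglutide and 65.6 to 83.9% in saline, and with those genes left out the median of the 30 was 0.97. The part of muscle in the result was not tested by this comparison, and fits with muscle levels as a covariate are given further on.

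At the entry step, Fabp3 was measured at 72.5, 176, 16.6, 110 and 167 CPM in MetOP saline and at 172, 391, 126, 381 and 425 CPM with semaglutide. The groups overlapped, with A241 lowest among the semaglutide libraries, and the log2 fold change was 1.46 ± 0.91 (SE, edgeR adjusted p = 0.532). Acsl1, the main long-chain synthetase of muscle, heart and fat, ran from 43.8 to 101 CPM in saline and from 121 to 230 CPM with semaglutide (1.03 ± 0.51, adjusted p = 0.436). Acsl6 and Acot2, a synthetase and a mitochondrial thioesterase, were 0.91 ± 0.66 and 1.00 ± 0.61 higher on the log2 scale without passing. Acsl5, a synthetase of intestine and liver, went the other way. Its level was 20.6, 14.4, 32.9, 27.4 and 14.9 CPM in saline and 9.24, 10.8, 25.2, 9.46 and 7.80 CPM with semaglutide, so that 4 of 5 semaglutide libraries lay below all saline libraries and A241 did not (-0.82 ± 0.42, adjusted p = 0.455).

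The carnitine shuttle held both a gene that tracked the others and one that did not. Cpt1b, the muscle form, was at 36.1, 93.2, 27.1, 63.2 and 64.9 CPM in saline and at 89.4, 160, 70.8, 135 and 166 CPM with semaglutide. Saline A226 lay above 2 of the semaglutide libraries, and the log2 fold change of 1.13 ± 0.71 did not pass (adjusted p = 0.539). Cpt1a, the form of liver and most other tissues, was at 5.42, 7.82, 8.69, 4.85 and 4.96 CPM in saline and at 2.31, 7.94, 4.91, 7.84 and 6.35 CPM with semaglutide. These ranges overlapped almost fully (-0.11 ± 0.40, adjusted p = 0.936). In the other groups Cpt1a was at 6.16, 2.83, 3.74 and 5.03 CPM in healthy controls, at 8.52, 7.84, 7.24 and 5.43 CPM with PYY and at 3.73, 1.07, 5.26, 6.89 and 8.36 CPM with the combination. Cpt1b in those groups was at 28.6, 97.7, 89.2 and 84.5 CPM, at 33.1, 4.53, 29.7 and 213 CPM, and at 109, 125, 29.0, 76.8 and 6.13 CPM. The libraries poorest in Cpt1b were thus those poorest in muscle, PYY A216 and combination A320.

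Per transcript length, Cpt1b exceeded Cpt1a in every library but PYY A216. The ratio of Cpt1b to Cpt1a FPKM ran from 0.855 in PYY A216 to 173 in combination A251, with a median of 19.4. Group medians were 30.05 in healthy controls, 17.6 in MetOP saline, 29.8 with semaglutide, 5.91 with PYY and 16.5 with the combination. The spread within the PYY and combination groups, from 0.855 to 58.0 and from 1.08 to 173, was wider than any gap between group medians. Across the 23 libraries the log2 CPM of the 2 genes had a Pearson correlation of -0.39.

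**Figure D3:**
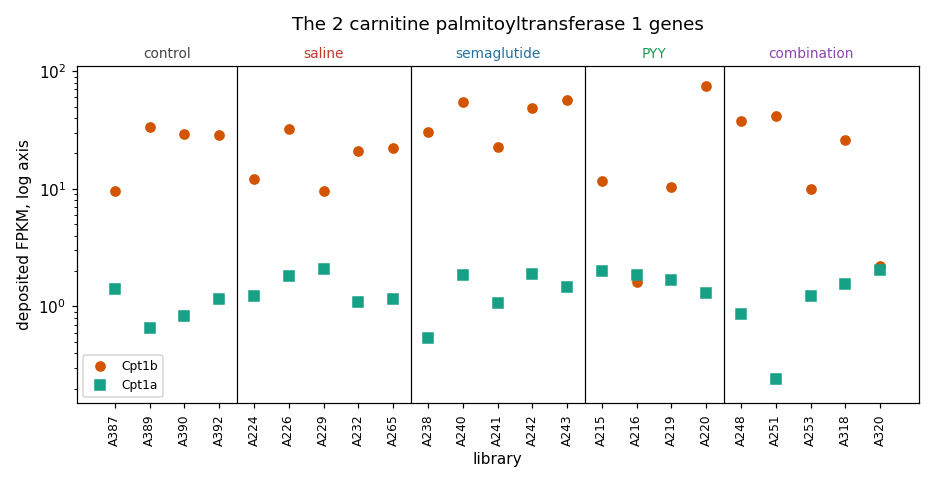
FPKM of Cpt1b (circles) and Cpt1a (squares) in each library, by group, on a log axis. Cpt1b lies between 1.60 and 75.5 FPKM and Cpt1a between 0.243 and 2.09, and they meet in PYY A216 and combination A320.

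Of the other shuttle genes, Crat makes and breaks short-chain acylcarnitines. Its level in saline was 43.7, 52.7, 26.9, 55.3 and 65.0 CPM and with semaglutide 96.3, 111, 83.6, 53.1 and 105 CPM, so that 4 of 5 semaglutide libraries lay above all saline ones, A242 being the exception. The log2 fold change was 0.88 ± 0.43 (adjusted p = 0.435). Healthy controls had 37.4, 103, 68.0 and 75.8 CPM, PYY libraries 35.3, 12.6, 33.6 and 91.8, and combination libraries 64.5, 93.0, 38.0, 73.2 and 17.5. Slc25a20, Cpt2 and Mlycd, the malonyl-CoA decarboxylase that lifts the brake on carnitine palmitoyltransferase 1, were 0.81 ± 0.47, 0.84 ± 0.65 and 0.94 ± 0.53 higher with semaglutide on the log2 scale, none passing.

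All 9 enzymes of the mitochondrial spiral were higher with semaglutide than with saline, by log2 fold changes of 0.71 (Echs1, the short-chain hydratase) to 1.15 (Acaa2, the thiolase that ends each round). Hadha and Hadhb encode the alpha and beta subunits of the trifunctional protein, which carries out the last 3 reactions on long chains. The genes lie head to head on chromosome 6: the deposited table places Hadhb at 26153578 to 26184869 on the minus strand and Hadha at 26187956 to 26227869 on the plus strand of mRatBN7.2. In RefSeq's annotation of GRCr8, another build, their start sites are 301 bases apart, much closer than in the deposited coordinates. The 2 annotations thus differ in the start sites. By RefSeq's, the promoter windows (250 bases before to 50 after the start) share 200 bases. They are printed because the 2 genes share this stretch of DNA and were the next after Acaa2 and Eci1 in the order of p here. Each is written 5′ to 3′ on its own gene's strand, and capitals mark the GC box GGGCGG or its reverse complement CCGCCC, with 1 match in the first window and 4 in the second. The match in the first window lies in the shared stretch and is the same site as the first match in the second.
Hadha, GRCr8 chr6:31907551-31907850, plus strand: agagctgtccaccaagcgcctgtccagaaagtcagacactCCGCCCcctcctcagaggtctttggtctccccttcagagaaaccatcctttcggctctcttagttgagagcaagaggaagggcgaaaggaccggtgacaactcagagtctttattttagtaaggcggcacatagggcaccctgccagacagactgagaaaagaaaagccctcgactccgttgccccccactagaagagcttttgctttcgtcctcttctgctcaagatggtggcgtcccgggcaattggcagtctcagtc
Hadhb, GRCr8 chr6:31907451-31907750, minus strand: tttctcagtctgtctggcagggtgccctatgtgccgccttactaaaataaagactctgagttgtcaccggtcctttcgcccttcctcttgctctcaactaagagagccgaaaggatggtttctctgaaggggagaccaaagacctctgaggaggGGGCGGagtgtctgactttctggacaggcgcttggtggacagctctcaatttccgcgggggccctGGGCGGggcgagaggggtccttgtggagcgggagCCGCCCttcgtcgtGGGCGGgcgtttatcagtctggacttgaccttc

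Hadha was at 64.6, 85.2, 38.6, 99.9 and 81.7 CPM in saline and at 116, 198, 114, 138 and 174 CPM with semaglutide. The 2 groups did not overlap, and the log2 fold change was 1.00 ± 0.44 (adjusted p = 0.407). Hadhb was at 94.2, 130, 80.4, 145 and 113 CPM in saline and at 216.01, 296, 150, 222 and 275 CPM with semaglutide, again without overlap (1.04 ± 0.49, adjusted p = 0.424). In healthy controls Hadha was at 58.6, 126, 104 and 70.7 CPM and Hadhb at 94.95, 252, 201 and 165 CPM. With PYY they were at 55.3, 24.5, 54.8 and 193 CPM and at 102, 32.9, 77.9 and 316 CPM. With the combination they were at 124, 148, 52.7, 118 and 33.6 CPM and at 166, 211, 80.0, 181 and 29.3 CPM. Both subunits were thus highest in PYY A220 or semaglutide A240 and lowest in PYY A216 or combination A320. Their log2 CPM had a Pearson correlation of 0.951 over the 23 libraries, rank 52 of the 435 pairs. Per length, Hadhb was 1.10 to 2.94 times Hadha, with a median ratio of 1.93.

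Hadh, the dehydrogenase for short and medium hydroxyacyl chains, was at 28.2, 40.1, 16.6, 51.0 and 45.0 CPM in saline and at 69.3, 103, 43.4, 82.7 and 98.2 CPM with semaglutide. Only A241 of the semaglutide libraries fell within the saline range, and the log2 fold change was 1.13 ± 0.54 (adjusted p = 0.432). Acaa2 was at 26.6, 41.4, 22.0, 38.3 and 36.8 CPM in saline and at 64.1, 98.9, 48.0, 69.1 and 86.1 CPM with semaglutide. The groups did not overlap, and Acaa2 had the smallest p of the 30 genes (1.15 ± 0.49, unadjusted p = 0.028, adjusted p = 0.400). In the remaining groups Hadh was at 22.4, 76.2, 62.6 and 64.4 CPM (healthy controls), 30.3, 7.60, 20.3 and 116 CPM (PYY) and 48.1, 68.5, 26.3, 56.1 and 12.7 CPM (combination). Acaa2 was there at 18.2, 72.3, 49.9 and 52.5 CPM, at 37.0, 13.0, 24.7 and 121 CPM, and at 67.9, 69.5, 30.8, 49.2 and 11.7 CPM. Healthy control A387 was the lowest control for both genes, and its slow-fibre markers summed to 605 CPM, while the control group reached 9341 CPM. The 4 acyl-CoA dehydrogenases Acadvl, Acadl, Acadm and Acads, named for very long to short chains, were higher with semaglutide by log2 fold changes of 0.82, 1.12, 0.97 and 1.11, with adjusted p from 0.435 to 0.495.

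Unsaturated fatty acids need isomerases and a reductase, and Eci1, the mitochondrial enoyl-CoA isomerase, had the largest log2 fold change of the 30 genes, 1.48 ± 0.63 (adjusted p = 0.402). Its level was 14.1, 25.4, 3.47, 15.96 and 15.7 CPM in saline and 26.4, 52.7, 17.6, 56.9 and 54.6 CPM with semaglutide. Saline A226 lay above semaglutide A241, so the groups overlapped by this 1 pair. Elsewhere Eci1 was at 13.2, 32.1, 31.4 and 23.5 CPM in healthy controls, at 12.9, 3.94, 13.5 and 66.2 CPM with PYY and at 36.2, 43.0, 9.68, 28.6 and 4.74 CPM with the combination. Eci2, Decr1 and the peroxisomal enzymes Ehhadh and Acaa1a were higher with semaglutide by 0.72, 0.92, 0.84 and 0.77 on the log2 scale. Ehhadh was scarce, with 0 to 5.84 CPM over all libraries.

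Electrons from the acyl-CoA dehydrogenases reach the respiratory chain through the 2 subunits of electron transfer flavoprotein and its oxidoreductase Etfdh. Etfdh was at 31.7, 47.3, 20.1, 43.7 and 40.6 CPM in saline and at 61.0, 86.4, 49.1, 73.6 and 84.3 CPM with semaglutide. The groups did not overlap (0.95 ± 0.45, adjusted p = 0.426). Etfdh was at 27.7, 54.4, 37.7 and 49.2 CPM in healthy controls, 33.0, 11.2, 20.8 and 95.6 CPM with PYY and 60.3, 64.1, 36.9, 37.1 and 10.9 CPM with the combination. Etfa was 1.04 ± 0.54 higher with semaglutide on the log2 scale, while Etfb was 0.41 ± 0.48 higher, the smallest positive difference of the 28.

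The regulators varied widely between libraries, and Ppara was also near the limit of detection. Ppara, the fatty-acid-sensing receptor that drives these genes in liver and muscle, had 26, 7, 12, 16 and 0 counts in saline and 29, 27, 4, 28 and 15 counts with semaglutide. Healthy controls had 0, 24, 6 and 0 counts, PYY libraries 23, 1, 0 and 81, and combination libraries 4, 8, 0, 0 and 4. No library had more than 1.60 CPM, and the log2 fold change for semaglutide versus saline was 0.72 ± 1.46 (adjusted p = 0.878). Ppargc1a, the coactivator of mitochondrial biogenesis, had 96, 59, 41, 13 and 87 counts in saline and 88, 179, 58, 46 and 193 counts with semaglutide (0.66 ± 1.21, adjusted p = 0.865). It had 0, 121, 18 and 0 counts in healthy controls, 26, 0, 25 and 231 with PYY and 138, 102, 0, 70 and 13 with the combination. For semaglutide versus saline the standard errors of both regulators were larger than the differences, so neither direction nor absence of a change could be read there.

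RGD1565355, the row described as similar to CD36 (mRatBN7.2 chromosome 4, 17354466 to 17513903), was at 15.3, 33.6, 48.6, 29.0 and 32.3 CPM in saline and at 18.1, 56.0, 21.9, 10.7 and 14.3 CPM with semaglutide. The ranges overlapped, and its log2 fold change of -0.39 ± 0.45 had the opposite sign to Fabp3. It was at 16.03, 16.6, 24.8 and 21.4 CPM in healthy controls, at 19.9, 7.95, 23.6 and 48.9 CPM with PYY and at 39.1, 17.1, 31.1, 15.8 and 51.4 CPM with the combination. It passed in none of the 8 comparisons.

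**Figure D4:**
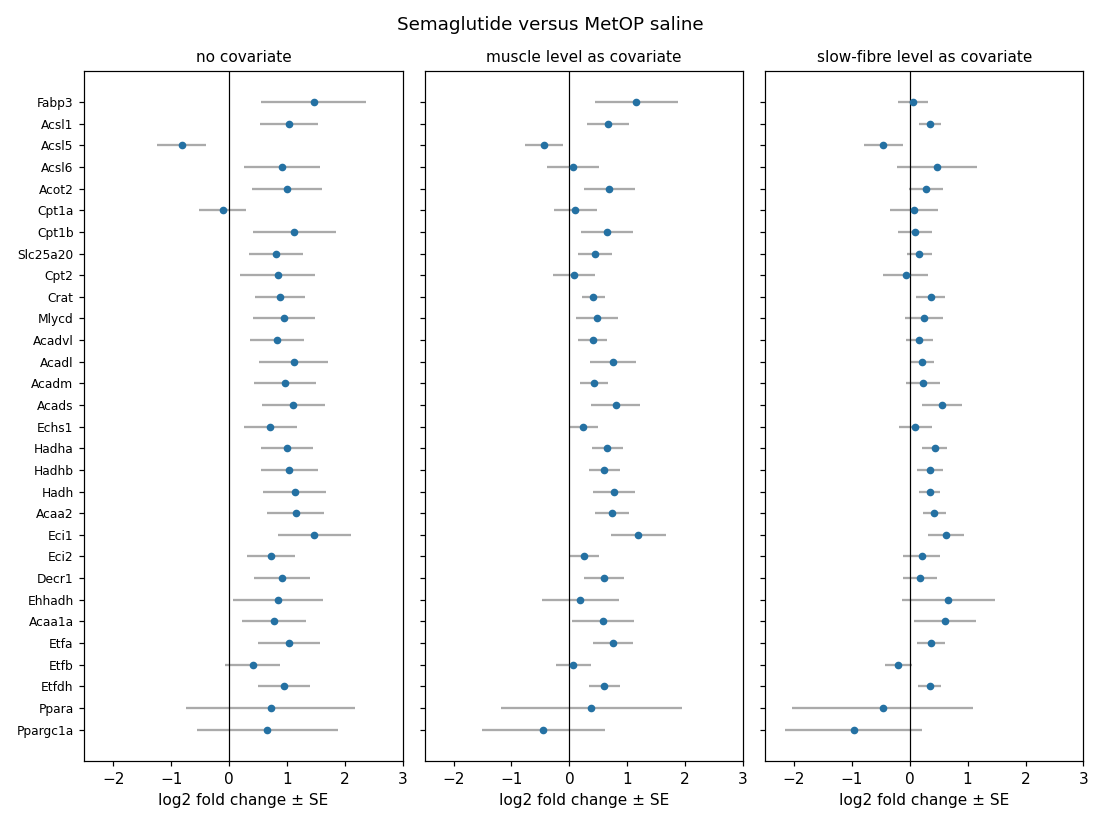
Log2 fold change of each gene for semaglutide versus MetOP saline, with bars of 1 standard error, from edgeR with no covariate (left), with the muscle level as covariate (middle) and with the slow-fibre level as covariate (right). Positive values are higher with semaglutide. The median of the 30 genes is 0.93 at left, 0.53 in the middle and 0.24 at right.

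MetOP saline against healthy control, the comparison of the model with healthy animals, gave small differences in the opposite direction. Of the 30 genes 26 were lower and 4 higher in MetOP saline, beside 47.4 and 52.5% of all tested genes, with a median log2 fold change of -0.41 against 0.04 over all genes. None passed at the adjusted threshold (0% of all genes; smallest adjusted p among the 30 was 0.893), none at an unadjusted p under 0.05 (4.68% of all genes higher, 1.87% lower), and none had groups that did not overlap (1.57% of all genes higher, 1.2% lower). The 4 higher genes were Cpt1a, Acsl5, Ppara and Ppargc1a, the first at 0.51 ± 0.43. The 9 spiral enzymes were all lower, by 0.21 (Acadvl) to 0.89 (Acads) on the log2 scale. Muscle markers were lower in 28 of 28, with a median of -0.53, and their part was not tested by this comparison.

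PYY against MetOP saline rested on 1 library. With all 4 PYY libraries, 24 of the 30 genes were higher and 6 lower, beside 49.5 and 50.5% of all genes, with a median log2 fold change of 0.18 (-0.01 over all genes). None passed by edgeR (0% of all genes), and 0 of the 30 had an unadjusted p under 0.05 (3.46% of all genes higher, 1.38% lower). PYY A220 was the highest of the 4 PYY libraries for all 30 genes except Cpt1a, Acsl5, Acsl6 and Ehhadh, and it held 193 CPM of Hadha where the other 3 held 24.5 to 55.3. Without A220 the median of the 30 became -0.75, with 3 higher and 27 lower, beside 48.3 and 51.6% of all genes. No gene of the 30 passed either way (without A220, 0.00636% of all genes were called higher and 0% lower). Neither direction can therefore be read for PYY alone. Endothelial markers were higher with PYY in 10 of 10 (median 0.89, 9 at an unadjusted p under 0.05), with a summed level of 208 to 603 CPM against 175 to 246 CPM in saline, and again in 10 of 10 without A220 (median 1.09). Erythroid markers were lower in 12 of 12 (median -0.81) and muscle markers in 21 of 28 (median -0.33). Within the muscle list, 6 of 6 slow-fibre markers were higher (median 0.27) and 10 of 10 fast-fibre markers lower (median -0.83). Without A220, muscle markers were lower in 28 of 28 (median -0.83). Slow-fibre markers were then lower in 6 of 6 (median -3.23) and fast-fibre markers in 10 of 10 (median -0.70). None of these markers passed the adjusted threshold, and their part in the PYY values was not tested.

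The combination against MetOP saline gave a smaller shift than semaglutide alone did, with 26 higher and 4 lower (52.5 and 47.5% of all genes) and a median log2 fold change of 0.30 (0.02 over all genes). Leaving out each of the 10 libraries in turn gave medians from 0.08 to 0.56. Muscle markers were higher than in saline in 25 of 28 (median 0.33) and lower than with semaglutide in 28 of 28 (median -0.61). Their part in the combination values was not tested. None of the 30 passed by edgeR (0% of all genes), and none had an unadjusted p under 0.05 (1.46% of all genes higher, 1.60% lower). Ehhadh (1.43 ± 0.78), a peroxisomal enzyme, and Ppara (-1.95 ± 1.52) had the largest differences, both from few counts. The direct comparison of the combination with semaglutide had 27 of 30 lower and 3 higher (46.3 and 53.7% of all genes), a median of -0.65 and no gene past the adjusted threshold (0% of all genes; smallest adjusted p 0.816) or at an unadjusted p under 0.05 (3.99% higher, 1.66% lower), so a difference between them was not shown. Combination against PYY gave 19 higher and 11 lower genes (52 and 48% of all genes), a median of 0.20 and none past either threshold (0% of all genes adjusted, 2.05% higher and 4.19% lower unadjusted), and without PYY A220 the median was 1.10. For the interaction, which asks whether the log2 effects of the 2 drugs add up in the combination, 26 of 30 values were below 0 (48.3% of all genes), with a median of -0.75 and none past either threshold (0% of all genes adjusted, 2.89% higher and 1.7% lower unadjusted). Without PYY A220 that median was 0.17. The comparisons share the saline, semaglutide and PYY libraries, so they do not support each other.

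Semaglutide against PYY gave 28 higher and 2 lower genes (46.7 and 53.3% of all genes), a median log2 fold change of 0.74 (-0.06 over all genes) and 0 of 30 genes past the adjusted threshold (0.00655% of all genes). Crat, at 1.05 ± 0.46 (unadjusted p = 0.033, adjusted p = 0.259), was the 1 gene of the 30 with an unadjusted p under 0.05 (6.93% of all genes higher, 9.93% lower), and Acsl6 the 1 whose groups did not overlap (2.89% of all genes higher, 2.98% lower). PYY A220 held the highest mean level of the 30 genes and was singled out after its values were seen. Leaving it out therefore lowers the PYY side for most of them, and calls made without it lend no support. Without PYY A220, 8 of the 30 were called higher (2.76% of all genes) and 0 lower (3.73% of all genes), with a median of 1.70. They were Acsl1 (1.90 ± 0.47, adjusted p = 0.0245), Hadha (1.72 ± 0.44, 0.0290), Etfdh (1.71 ± 0.44, 0.0291), Hadh (2.03 ± 0.53, 0.0310), Crat (1.72 ± 0.46, 0.0321), Acadl (2.16 ± 0.63, 0.0438), Etfa (1.96 ± 0.57, 0.0441) and Hadhb (1.71 ± 0.50, 0.0442), all by edgeR with 5 and 3 libraries. Muscle markers were higher with semaglutide in 28 of 28, and the remaining PYY libraries A215, A216 and A219 had slow-fibre sums of 917, 34.3 and 227 CPM against 3393 to 14972 CPM with semaglutide. In the same fit without A220, 7 of 11 osteoblast markers (median -2.89) and 7 of 10 endothelial markers (median -1.20) were called lower with semaglutide, as was 1 of 8 macrophage markers, and 7 of 28 muscle markers were called higher. Among the muscle markers, 6 of 6 slow-fibre markers (median 4.72) and 0 of 10 fast-fibre markers (median 1.19) were called higher. The part of these cells in the 8 calls was not tested.

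The levels of the genes followed muscle RNA across libraries. The mean log2 CPM of the 28 muscle markers and of each of the 30 genes share library, scaling and composition, so the 30 relations are described without an adjusted p. Crat had the highest Pearson correlation, 0.933 (Spearman 0.911, permutation p = 1e-05, the smallest that 100000 resamples can give), and 0.881 without PYY A216 and combination A320, the 2 libraries farthest from the median. Crat was picked as the highest of the 30, so its unadjusted p lends no support. Acadm followed at 0.926. Acsl5 (-0.669, Spearman -0.720) and Cpt1a (-0.556, Spearman -0.690) were the only 2 with negative values, and Ppara (0.230, Spearman 0.199, permutation p = 0.301) was the lowest of the positive ones. The median correlation of the 30 was 0.807, beside -0.07 over the 15243 tested genes outside the marker list, and 16 of the 30 exceeded 0.8, as did 6.69% of those genes. This count rests on A216 and A320: without them the median of the 30 was 0.646 (-0.02 over the other genes), and 1 of 30, Crat, exceeded 0.8 (2.23% of the other genes).

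Fibre type separated the genes further. Sub-lists of 6 slow-fibre and 10 fast-fibre markers were drawn from the muscle list after the values were seen, so they carry no test. With the slow-fibre level the 30 genes had a median correlation of 0.880 over the 23 libraries, led by Fabp3 (0.956), Acadl (0.949), Hadh (0.938) and Acsl1 (0.937). With the fast-fibre level the median was 0.300. The slow-fibre correlation was the larger in 27 of the 30 genes, and 21 of 30 exceeded 0.8 with the slow-fibre level (3.60% of other tested genes) against 0 of 30 with the fast-fibre level (0.708%). Without A216 and A320, 19 of 30 exceeded 0.8 with the slow-fibre level (2.15% of other genes; median of the 30 0.839), while the fast-fibre median was -0.10. PYY A220 and semaglutide A242 weigh in this contrast, since they combine high slow-fibre with low fast-fibre RNA. Acsl6, Ehhadh and Acsl5 were the 3 exceptions, Acsl6 with 0.680 for fast and 0.548 for slow fibres.

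**Figure D5:**
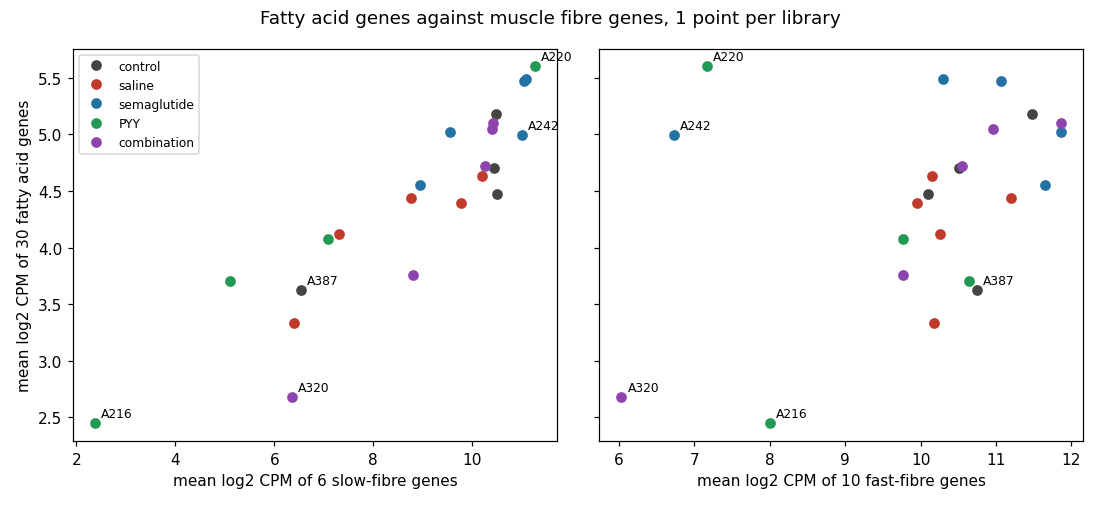
Mean log2 CPM of the 30 genes against that of 6 slow-fibre markers (left) and 10 fast-fibre markers (right), 1 point per library, coloured by group. At left the points rise together (Pearson correlation 0.906), and at right A220 and A242 are high for the 30 genes with few fast-fibre transcripts (0.359).

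Other cell markers were compared in the same way. The mean level of the 30 genes had correlations over the 23 libraries of 0.950 with the citric acid cycle list, -0.782 with macrophage, -0.696 with osteoblast and -0.589 with erythroid markers, -0.453 with endothelial and 0.389 with adipocyte markers, and -0.538 with the mitochondrially encoded share of counts. Without A216 and A320 the adipocyte value was 0.060 and the endothelial value -0.303. The others were then 0.917 (citric acid cycle), -0.831 (macrophage), -0.745 (osteoblast), -0.635 (erythroid) and -0.589 (mitochondrially encoded share). Adipocyte RNA was low throughout, with a summed level of the 11 markers of 13.9 to 106 CPM, and Ucp1, which marks brown fat, was at 0 in 4 of the 5 groups and at no more than 0.128 CPM in MetOP saline. With semaglutide, osteoblast, erythroid and macrophage markers were lower than with saline in 11 of 11, 12 of 12 and 8 of 8, with medians of -2.36, -1.58 and -1.22, beside 52.4% of all genes lower. None of these markers passed the adjusted threshold, the smallest adjusted p by edgeR being 0.371, 0.389 and 0.389. The shares of these cells, the muscle share and the levels of the 30 genes moved together, and a change within one kind of cell cannot be told apart from a change in tissue make-up.

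Fits that took up the muscle or slow-fibre level of each library as a covariate left less of the semaglutide difference. With the muscle level, the median of the 30 for semaglutide versus saline was 0.53 (28 higher, 2 lower), 8 of the 30 had an unadjusted p under 0.05 (3.08% of all genes, higher), and the smallest adjusted p was 0.620. With the slow-fibre level, a covariate added after the data were seen, the median was 0.24 (25 higher, 5 lower), 1 of 30 had an unadjusted p under 0.05 (1.85% of all genes), and the smallest adjusted p was 0.928. Acaa2 went from 1.15 to 0.74 ± 0.29 and 0.43 ± 0.20, Eci1 from 1.48 to 1.19 ± 0.47 and 0.63 ± 0.31, and Fabp3 from 1.46 to 1.16 ± 0.72 and 0.06 ± 0.26. For semaglutide versus PYY the sign of the median turned, from 0.74 to -0.11 with the muscle level and -0.23 with the slow-fibre level. For PYY versus saline the median went from 0.18 to 0.67 and 0.49, with 10 and 11 of the 30 at an unadjusted p under 0.05 (4.58 and 3.46% of all genes, higher), led by Acaa2 (1.07 ± 0.31, adjusted p = 0.477, and 0.88 ± 0.21, adjusted p = 0.336). For the combination versus PYY the sign of the median turned too, from 0.20 to -0.49 and -0.60, with 6 and 13 of the 30 lower at an unadjusted p under 0.05 (5.19 and 3.46% of all genes). The combination versus semaglutide had 2 and 7 such genes (2.49 and 2.22% of all genes), both medians being -0.38, and the combination versus saline had medians of 0.14 and -0.18 in place of 0.30. For the interaction the median went from -0.75 to -1.06 and -0.89, with 17 and 16 of the 30 below 0 at an unadjusted p under 0.05 (5.72 and 3.88% of all genes). None of the 30 passed the adjusted threshold in any comparison of either fit. The mean log2 CPM of the 30 genes minus that of the muscle markers was highest in PYY A216 (-3.62), combination A320 (-3.65) and PYY A220 (-3.97). The covariate fits were not run without these libraries. How far the values involving PYY or the combination rest on them was not tested, and no direction can be read for PYY here either. The levels that served as covariates were measured in the same libraries, so a treatment difference in muscle itself cannot be told apart from one in the 30 genes by these fits.

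Of the wider pathway, 45 of 50 further genes of fatty acid handling were tested and none passed in the comparisons with saline or control. With semaglutide 33 were higher and 12 lower than in saline (median 0.52). Fabp5, a fatty acid binding protein of skin, macrophages and endothelium, was lower (-1.38 ± 0.34, adjusted p = 0.371), as was Pparg, the receptor that directs fat cell formation (-1.47 ± 0.49), and Pnpla2, the triglyceride lipase, was higher (1.20 ± 0.42). In MetOP saline versus healthy control, 20 were higher and 25 lower, with Slc27a4, a fatty acid transport protein, at 2.18 ± 0.94 CPM in controls (n = 4) and 5.75 ± 1.55 CPM in saline (n = 5), a log2 fold change of 1.40 ± 0.38 (adjusted p = 0.555). Tfam (-0.65 ± 0.30) and Acsl4 (0.55 ± 0.30) came next by p. With PYY 30 were higher and 15 lower (median 0.10), the smallest p values being those of Lipe (0.68 ± 0.39), Lpl (0.96 ± 0.71) and Rxra (0.56 ± 0.44). These values are from the fit with all libraries. Without A220, 14 were higher and 31 lower (median -0.28). With the combination 31 were higher and 14 lower, with Slc27a4 at -0.80 ± 0.35, Ppard at 1.03 ± 0.48 and Pnpla2 at 0.85 ± 0.42. The 16 citric acid cycle genes, which burn the acetyl-CoA made by beta-oxidation, had medians of -0.47, 0.72, -0.25 and 0.22 in these 4 comparisons, with 15 of 16 lower in MetOP saline than in control, 16 of 16 higher with semaglutide, 16 of 16 lower with PYY and 14 of 16 higher with the combination, and none passed. Without A220 their median with PYY was -0.69, again with 16 of 16 lower.

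Promoter windows in RefSeq's GRCr8 table were matched for 27 of the 31 genes. Motifs were counted by their letters on both strands, in these windows and in all 33469 windows of the same length. The GC box GGGCGG occurred in 18 of the 27 (33.1% of all windows) and the E-box form CANCTG in 14 (50.2%). E-boxes with other letters were not counted. The nuclear receptor half-site AGGTCA occurred in 5 (16.2%), namely those of Acadvl, Echs1, Eci1, Eci2 and Hadhb. The perfect direct repeat AGGTCANAGGTCA, which contains the half-site and to which receptors of the Ppara family bind, was in 0 of 27 (0.054% of all windows), and TCAAGGTCA, the element of oestrogen-related receptors, which also contains the half-site, in 0 of 27 (0.433%). The GC box site that Hadha and Hadhb share was counted in both windows. A match is only a match of letters, and its absence applies to these letters in this window.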

How the data were processed

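The authors deposited raw counts, with 1 row for each Ensembl gene, and FPKM values for 23 libraries of rat femora. Per the submitters' processing notes, the tools included DESeq2 1.42.0 and the build was mRatBN7.2. For the aligner and counter, the sources used here name none. The extraction text describes both stranded and unstranded libraries, so counts of overlapping or antisense genes and of near-identical copies are uncertain. Each library held 19.25 to 40.65 M counts in total, and 0 columns of the tables were left unmapped.

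Groups were taken from titles and treatment labels. Counts were tested with edgeR 4.0.16 in R 4.3.3 (quasi-likelihood, TMM, filterByExpr, robust) in 1 fit of all 23 libraries with 5 group means and 18 residual degrees of freedom, after a check on simulated data. A call needed a p under 0.05 after Benjamini-Hochberg adjustment over 15271 genes. The common biological coefficient of variation was 69.9%. CPM were scaled by the TMM factors, log2 CPM had a prior count of 2, and list levels are means of log2 CPM. FPKM served for levels between genes. Alternatives were DESeq2, limma voom (limma 3.58.1), DESeq2 size factors, no filter beyond 1 count, leaving out mitochondrially encoded genes, only the groups compared, a muscle covariate and leaving out each library. A slow-fibre covariate and the removal of sets of libraries were chosen after seeing the data.

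Values in every library are given for genes with an unadjusted p under 0.05 in any comparison and, whatever their p, for Cpt1a, Cpt1b, Ppara and Ppargc1a. Of the 50 further pathway genes, the 3 of smallest p in each comparison with saline or control are named. Other genes with values by library (Fabp3 and Acsl5 in saline and semaglutide only, RGD1565355 in all groups) were chosen after their values were seen. The members and lists were chosen with earlier results of these data known. The fibre sub-lists were Myh7, Myl2, Myl3, Tnnt1, Tnni1 and Tnnc1 (slow) and Myh4, Actn3, Myl1, Tnnt3, Tnni2, Tnnc2, Atp2a1, Casq1, Pvalb and Myoz1 (fast).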

Additional observations from a re-analysis of the deposited data

Results flagged for a closer look

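In 155 sets of libraries (each of the 30 genes and their mean, in each of the 5 groups), 8 held 1 library far from the others of its group. Chance would mark about 5% of the sets, and 8 of 155 is near that share. The 8 are therefore listed as a description and not as results. Healthy control A387 was low for 4 genes on the log2 CPM scale: Acadl at 5.48, while the other controls had 7.33 to 7.62, Cpt1b at 4.84 against 6.40 to 6.61, Fabp3 at 4.82 against 7.82 to 7.96, and Hadh at 4.49 against 5.97 to 6.25. The slow-fibre level of A387 was 6.54, and the median of the controls was 10.5. Its part in these values was not tested. Healthy control A389 was high for Mlycd, at 4.14 against 3.42 to 3.47. MetOP saline A229 was low for Acads, at 0.10 against 3.29 to 4.17. Semaglutide A241 was high for Acsl5, at 4.66 against 2.98 to 3.45, while its other semaglutide libraries lay below every saline library for this gene. PYY A216, 1 of the 2 libraries poorest in muscle, was low for Acsl6, at 0.55 against 3.10 to 3.47.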

How the results depend on the processing

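Over the alternatives run, none of the 30 genes was called in any comparison, except in semaglutide versus PYY without PYY A220 (8 genes) and without PYY A220 and semaglutide A242 together (5 genes, median 1.63). For semaglutide versus saline the median of the 30 stayed between 0.81 and 1.07 when each library was left out. DESeq2 called more genes overall than edgeR: 47 in MetOP saline versus control, 89 and 487 in semaglutide versus saline and versus PYY, 3 in PYY versus saline, 2, 12 and 10 in the combination versus saline, semaglutide and PYY, and 3 for the interaction; the cause was not tested. Limma voom called 1 gene in the combination versus PYY. The slow-fibre covariate gave 1 call each for PYY versus saline and the interaction and a median of -0.23 for semaglutide versus PYY, for which the muscle covariate gave -0.11. Without PYY A220 and semaglutide A242 together, there were 847 calls in semaglutide versus PYY, 22 in the combination versus PYY and 1 in PYY versus saline, whose median of the 30 was then -0.68.

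Leaving out each library gave 1 to 1021 calls in semaglutide versus PYY (0 to 8 of the 30, median of the 30 from 0.43 to 1.70, Crat from 0.74 to 1.72), 0 to 1 in PYY versus saline (-0.75 to 0.47), 0 to 2 in the combination versus PYY (-0.10 to 1.10), 0 to 3 in the combination versus semaglutide (-0.85 to -0.41) and a median from -1.06 to 0.17 for the interaction. PYY A220 set the end of the range away from the value with all libraries in each of these except the combination versus semaglutide, where combination A251 did so for the calls. No paired analysis was possible because the groups share no replicate numbers. Counts of 0 to 81 limit Ppara, and groups of 4 or 5 with a coefficient of variation of 69.9% limit all comparisons.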
